A study of Danio rerio with 4 samples.

Results

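Wnt signaling genes were followed in the injured zebrafish ventricle: the Wnt ligands, their Frizzled and Lrp receptors, the R-spondins, the secreted inhibitors, the feedback genes and the beta-catenin and Tcf/Lef genes. They were taken from the gene table by symbol, under a rule that uses no measured value. The set was chosen with earlier results of these data known. The rule takes every symbol that begins with *wnt* and a digit, *fzd*, *sfrp*, *dkk*, *rspo*, *axin*, *tcf7l* or *notum*, and a fixed set of single genes such as *lrp5*, *lrp6*, *lef1* and *ctnnb1*. It found 46 genes of the 17221 in the table. No row carried the symbols *rnf43* or *tcf7*, which the rule also lists, and these are not analysed here.

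The study compared adult ventricles of WT fish with those of Tg(hsp70l:sflt4) fish, all labelled as strain AB. The transgene places sflt4, a secreted version of the receptor Flt4 that takes up its ligand Vegfc, under the heat-inducible promoter of *hsp70l*. Fish of both groups underwent cryoinjury, which freezes and kills part of the heart wall, then heat shock at 39 °C, and the ventricles were taken at 24 h after the injury. Each group had 2 libraries of messenger RNA, each from a pool of 3 ventricles. The labels give neither the sequence or allele of the transgene nor the cells that made the protein. Each library held an estimated 29000000 to 34800000 reads in genes. Values below are normalized reads, that is, read counts divided by the authors' size factor for the library and rounded. They are not divided by gene length, so they are compared between libraries and not between genes. Endogenous *flt4* read 618 and 515 in the WT libraries against 504 and 538 in Tg(hsp70l:sflt4), and need not report the transgene. Endogenous *hsp70l*, whose promoter drives the transgene, read 461 and 4264 against 1191 and 647, with both transgenic values between those of WT.

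Wnt proteins are secreted lipid-modified signals. They bind a Frizzled receptor together with the co-receptor Lrp5 or Lrp6, which stops a complex built on Axin from marking beta-catenin for degradation, and beta-catenin then activates genes with Tcf and Lef factors. Other Wnt ligands act through Frizzled receptors without beta-catenin, on cell polarity and movement. In the heart, Wnt signals act in cardiomyocyte specification, in valve formation and in the response of epicardium and fibroblasts to injury.

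Of the 46 genes, 45 had a mean of at least 10 normalized reads over the 4 libraries and entered the test, and *wnt11* at a mean of 8.75 did not. None of the 45 passed limma's test at an adjusted p under 0.05, as none of all 17071 genes tested did (0%). At an unadjusted p under 0.05 there were 3 Wnt genes, *axin2*, *fzd9b* and *lrp5*, and each had the lower mean in Tg(hsp70l:sflt4). Over all genes tested, 11% had such a p, 5.45% with the lower and 5.57% with the higher mean in the transgenic libraries. For 19 of the 45 Wnt genes (42.2%) both libraries of one group lay above both of the other, a share near the 43.2% of all genes tested. Of these 19 genes without overlap, 14 were lower in Tg(hsp70l:sflt4), where all genes gave 21.4%, and 5 were higher, where all genes gave 21.8%. These counts are 31.1% and 11.1% of the 45 genes. The median log2 difference, Tg(hsp70l:sflt4) minus WT, was -0.20 over the 45 genes and -0.01 over all genes tested, and 32 Wnt genes had the lower mean in the transgenic libraries. When libraries were set to equal totals, 9 Wnt genes were lower and 8 higher without overlap. The same shares over all genes were not counted for this scaling. At an unadjusted limma p under 0.05, all genes then gave 1584 higher and 549 lower. That scaling moved the median of all genes by 0.11 (log2), and the Wnt median was -0.19 relative to that of all genes, as it was -0.19 with the values as deposited. The lower median rested on WT replicate 1: without it the Wnt median was 0.02, with 22 of 45 genes lower in Tg(hsp70l:sflt4). None of *axin2*, *fzd9b* and *lrp5* kept an unadjusted p under 0.05 with equal totals, or once Tg(hsp70l:sflt4) replicate 2 was left out. *lrp5* also lost its unadjusted p under 0.05 with a filter at a mean of at least 50, and with libraries scaled to equal upper quartiles. With 2 libraries in each group, the smallest two-sided p of an exact permutation test is 0.333.

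**Figure D1:**
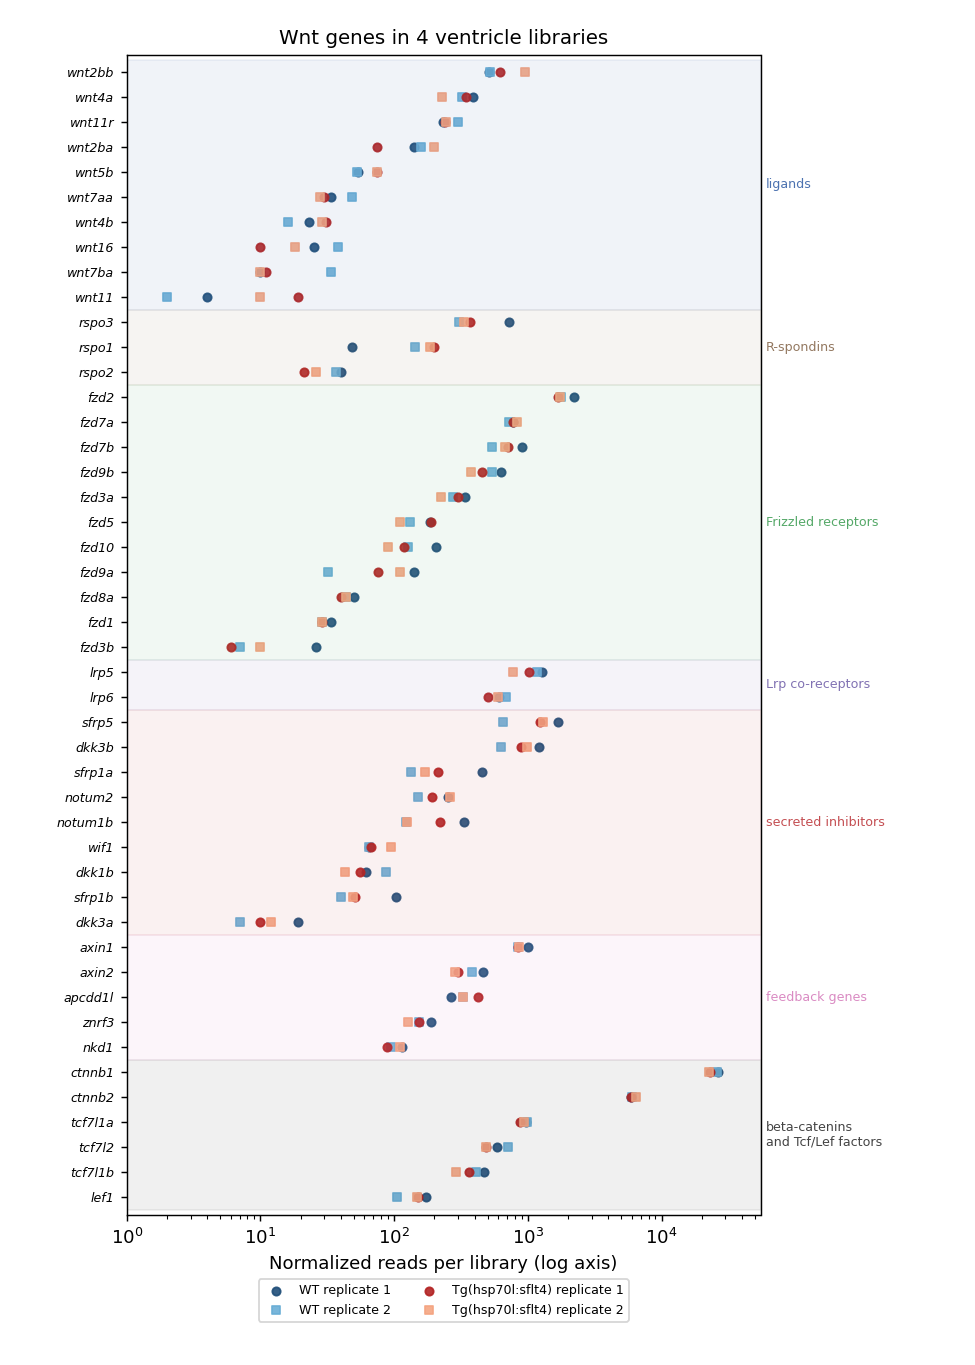
Normalized reads (log axis) of the 46 Wnt genes in each library, grouped by role and ordered by mean within a role. Blue points are the WT libraries and red points the Tg(hsp70l:sflt4) libraries. Values are not per length, so positions along the axis compare libraries of one gene and not genes. WT replicate 1 stands to the right for many Frizzled and inhibitor genes, such as *sfrp1a* at 453 against 134 to 214 in the other libraries.

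Among the ligands, 10 genes had a row and 9 were tested. The most read was *wnt2bb* (chromosome 8, 27743550 to 27768785, danRer11), a Wnt2b gene known in zebrafish for starting liver formation. It read 516 and 522 in the WT libraries against 618 and 948 in Tg(hsp70l:sflt4), or 519 ± 4.24 against 783 ± 233 (SD, n = 2 per group). Both transgenic libraries lay above both WT libraries, but they differed from each other by more than the nearer one differed from WT. The log2 difference was 0.56 (SE 0.23, limma unadjusted p = 0.0526, adjusted p = 0.456), and it was 0.25 without Tg(hsp70l:sflt4) replicate 2. Its paralogue *wnt2ba* read 141 and 158 against 74 and 198, so the WT libraries lay between the transgenic ones.

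The ligand with the closest agreement within groups was *wnt5b*, which acts on cell movement in the zebrafish gastrula. It read 54 and 53 in the WT libraries against 74 and 75 in Tg(hsp70l:sflt4), a 1.39-fold difference of means. The groups did not overlap, and each differed by 1 normalized read within itself. Even so the log2 difference of 0.47 had a moderated SE of 0.30 (limma unadjusted p = 0.166, adjusted p = 0.598), because limma draws the spread of a gene toward that of genes with similar levels. *wnt4b*, a Wnt4 gene, read 23 and 16 against 31 and 29, again without overlap. Its more read paralogue *wnt4a* read 388 and 322 against 347 and 227, and these groups overlapped.

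Lower values in the transgenic libraries were seen for *wnt16* (chromosome 4, 10706755 to 10713584), a ligand that zebrafish embryos need to specify blood stem cells. It read 25 and 38 in the WT libraries against 10 and 18 in Tg(hsp70l:sflt4). That is 2.25-fold lower by means (log2 difference -1.14, SE 0.53, limma unadjusted p = 0.0760, adjusted p = 0.492), and the groups did not overlap. *wnt7aa* read 34 and 48 against 30 and 28, also without overlap. *wnt7ba* read 10 and 34 against 11 and 10, a difference set by WT replicate 2. For *wnt11r*, whose product acts in heart tube looping in zebrafish embryos, the values were 232 and 303 against 240 and 243.

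The gene listed in the table as *wnt11* (ENSDARG00000004256, chromosome 5, 36513605 to 36520117) goes by *wnt11f2* in the reference names, and *wnt11r* by WNT11. The *wnt11* gene read 4 and 2 in the WT libraries against 19 and 10 in Tg(hsp70l:sflt4). Both transgenic libraries were higher, at 4.83 times the WT mean, with an exact 95% interval of 2.10 to 15.1 that covers counting error only. This interval comes from about 6 reads in WT and 30 in Tg(hsp70l:sflt4), and limma without a filter on low values gave an unadjusted p of 0.0545 and an adjusted p of 0.459. Of the ligands, *wnt11* and *wnt16* were the 2 whose groups did not overlap with a log2 difference of at least 1, in opposite directions.

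The R-spondins, secreted proteins that strengthen Wnt signals by removing the ubiquitin ligases Znrf3 and Rnf43 from the cell surface, went apart. *rspo1* (chromosome 16, 33772902 to 33817828), which zebrafish embryos use in vessel growth upstream of Vegfc, read 48 and 143 in the WT libraries against 198 and 185 in Tg(hsp70l:sflt4). Its means were 95.5 ± 67.2 against 191.5 ± 9.19 (SD, n = 2 per group). The transgenic libraries were close to each other and above both WT libraries, while the WT libraries differed 2.98-fold. The log2 difference of 1.20 (SE 0.52, limma unadjusted p = 0.0622, adjusted p = 0.469) became 0.42 without WT replicate 1 and 1.97 with WT replicate 2 left out instead. *rspo2* read 40 and 37 against 21 and 26, the opposite order without overlap (log2 difference -0.70, limma adjusted p = 0.558). *rspo3*, on the same chromosome at 40301056 to 40339027, read 725 and 305 against 367 and 332. WT replicate 1 alone stood apart for this gene, and without it the log2 difference of -0.43 was 0.19.

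The 11 Frizzled genes encode the 7-pass receptors that bind Wnt. Of these, 9 had the lower mean in Tg(hsp70l:sflt4), with a median log2 difference of -0.16, and 3 (27.3%, against 21.4% of all genes tested) were lower without overlap, *fzd9b*, *fzd10* and *fzd2*. With equal totals *fzd9b* was the 1 Frizzled gene lower without overlap, and *fzd7a* the 1 higher. *fzd9b* (chromosome 18, 41648812 to 41650648) read 628 and 537 in the WT libraries against 458 and 374 in Tg(hsp70l:sflt4), or 582.5 ± 64.3 against 416 ± 59.4 (SD, n = 2 per group). The groups were separate, and the gap between them of 79 normalized reads was smaller than the distance between the libraries of either group. The log2 difference was -0.49 (SE 0.18, limma unadjusted p = 0.0398, adjusted p = 0.432). Over the 10 alternatives run it ranged from -0.63 to -0.34, and as the groups were separate, leaving out a library could not turn its direction. *fzd10* read 206 and 127 against 118 and 90. *fzd2*, the Frizzled gene with the most reads, gave 2208 and 1779 against 1690 and 1730.

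In the other Frizzled genes the groups overlapped. *fzd7a* read 780 and 721 against 774 and 831, and *fzd7b* 911 and 541 against 714 and 679. These are the closely related Frizzled-7 paralogues, and WT replicate 1 was the highest library for the second only. The widest range within a group among all 46 genes was that of *fzd9a*, at 140 and 32 in the WT libraries against 76 and 110 in Tg(hsp70l:sflt4), a 4.38-fold span in WT. *fzd3b* was second, at 26 and 7 against 6 and 10, next to *fzd3a* at 336 and 278 against 300 and 226. *fzd5* read 187 and 131 against 188 and 110, *fzd8a* 50 and 44 against 40 and 44, and *fzd1* 34 and 29 against 29 and 29. Across the Frizzled genes WT replicate 1 was the highest library in 9 of 11. A further row under a clone name is *fzd6* in the reference names, lies outside the rule and read 1233 and 983 against 1106 and 1141.

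Both Lrp co-receptor genes were lower in Tg(hsp70l:sflt4) without overlap, where all genes tested gave 21.4%. With equal totals this held for *lrp5* alone. *lrp5* (chromosome 25, 10640623 to 10769039) read 1277 and 1165 in the WT libraries against 1026 and 772 in Tg(hsp70l:sflt4), or 1221 ± 79.2 against 899 ± 180 (SD, n = 2 per group). The transgenic libraries lay below WT but differed from each other by 254 normalized reads, more than the gap of 139 between the groups. The log2 difference was -0.45 (SE 0.18, limma unadjusted p = 0.0489, adjusted p = 0.453), and it was -0.25 without Tg(hsp70l:sflt4) replicate 2. *lrp6* read 604 and 689 against 505 and 596, where WT replicate 1 and Tg(hsp70l:sflt4) replicate 2 were 8 normalized reads apart (log2 difference -0.23, SE 0.17, limma adjusted p = 0.641).

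**Figure D2:**
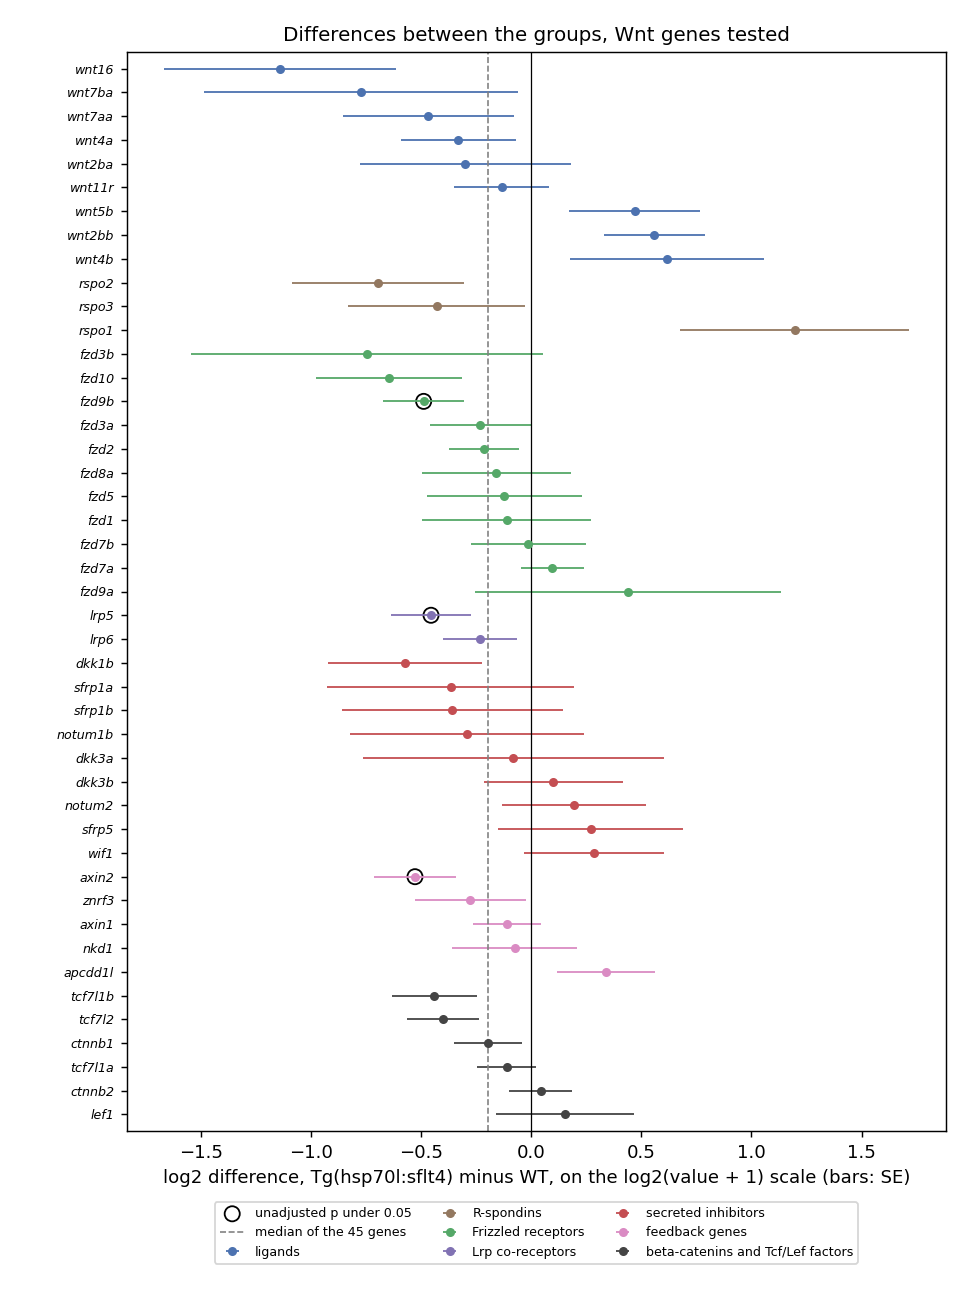
The log2 difference of each of the 45 Wnt genes tested, Tg(hsp70l:sflt4) minus WT on the log2(value + 1) scale, with its limma SE as a bar and one colour per role. Open circles mark the 3 genes at an unadjusted p under 0.05 (*axin2*, *fzd9b* and *lrp5*), and the dashed line is the median of -0.20. No gene passed at an adjusted p under 0.05, and 32 of the 45 points lie below 0.

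The 9 secreted inhibitors comprise the Sfrp and Wif1 proteins, which bind Wnt, the Dkk proteins, of which Dkk1 blocks Lrp5 and Lrp6, and the Notum enzymes, which remove the lipid from Wnt. By mean, 4 were higher and 5 lower in Tg(hsp70l:sflt4), with a median log2 difference of -0.08, and for 7 of 9 the groups overlapped. *sfrp5* (chromosome 13, 39911551 to 39947335) read 1675 and 657 in the WT libraries against 1237 and 1296 in Tg(hsp70l:sflt4), so both transgenic libraries lay between the WT ones. *dkk3b* showed the same order at 1222 and 629 against 893 and 990, as did *sfrp1a* at 453 and 134 against 214 and 171. *sfrp1b* read 103 and 40 against 51 and 49, *notum1b* 333 and 122 against 219 and 124, and *dkk3a* 19 and 7 against 10 and 12. In these 6 genes WT replicate 1 was the highest library and WT replicate 2 the lowest. *notum2* read 255 and 151 against 192 and 263.

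The groups did not overlap for 2 inhibitors (22.2%, against 43.2% of all genes tested), and with equal totals for *wif1* alone. *dkk1b* read 62 and 87 in the WT libraries against 56 and 43 in Tg(hsp70l:sflt4) (log2 difference -0.57, SE 0.35, limma unadjusted p = 0.156, adjusted p = 0.587). *wif1* read 65 and 65 against 67 and 94, where the nearest libraries were 2 normalized reads apart. A row that the reference names call *sfrp2l*, outside the rule, read 17 and 35 against 27 and 7.

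WT replicate 1 was the highest of the 4 libraries for 26 of the 45 Wnt genes (57.8%), against 29.0% of all genes tested. Its mean deviation from the genes' own means was 0.51 (log2) for the inhibitors and 0.42 for the Frizzled genes, where WT replicate 2 was at -0.42 and -0.22. For the ligands it was the highest library in 1 of 9 genes, at a mean deviation of -0.06. Marker genes of fibroblasts and smooth muscle, like the inhibitors, had their highest mean deviation in WT replicate 1 and their lowest in WT replicate 2. WT replicate 1 was highest in 6 of 6 and WT replicate 2 lowest in 3 of 6 of these markers (7 of 9 inhibitors), with mean deviations of 0.53 and -0.51 in WT against -0.02 and -0.01 in Tg(hsp70l:sflt4). Their summed level was 65293 and 27686 normalized reads in the WT libraries against 54154 and 55856 in Tg(hsp70l:sflt4), and none was at 0. Epicardial markers had mean deviations of 0.49 and -0.33 in the WT libraries against 0.03 and -0.19 in Tg(hsp70l:sflt4), with WT replicate 1 highest in 5 of 6. Erythrocyte markers were at 0.59 and -0.63 in the WT libraries against -0.49 and 0.53 in Tg(hsp70l:sflt4), with WT replicate 1 highest in 4 of 5. Neutrophil markers were at 0.63 and -0.15 against -0.22 and -0.26, with WT replicate 1 highest in 2 of 4. WT replicate 1 was also highest in 4 of 7 endocardium and endothelium markers, at a mean deviation of 0.16. For heart muscle markers it was highest in 2 of 4, at 0.25. For macrophage markers it was highest in 1 of 6, at -0.27. The part of these cell types in the Wnt values was not tested. In these whole ventricles, fewer cells of a type and less RNA per cell cannot be told apart.

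**Figure D3:**
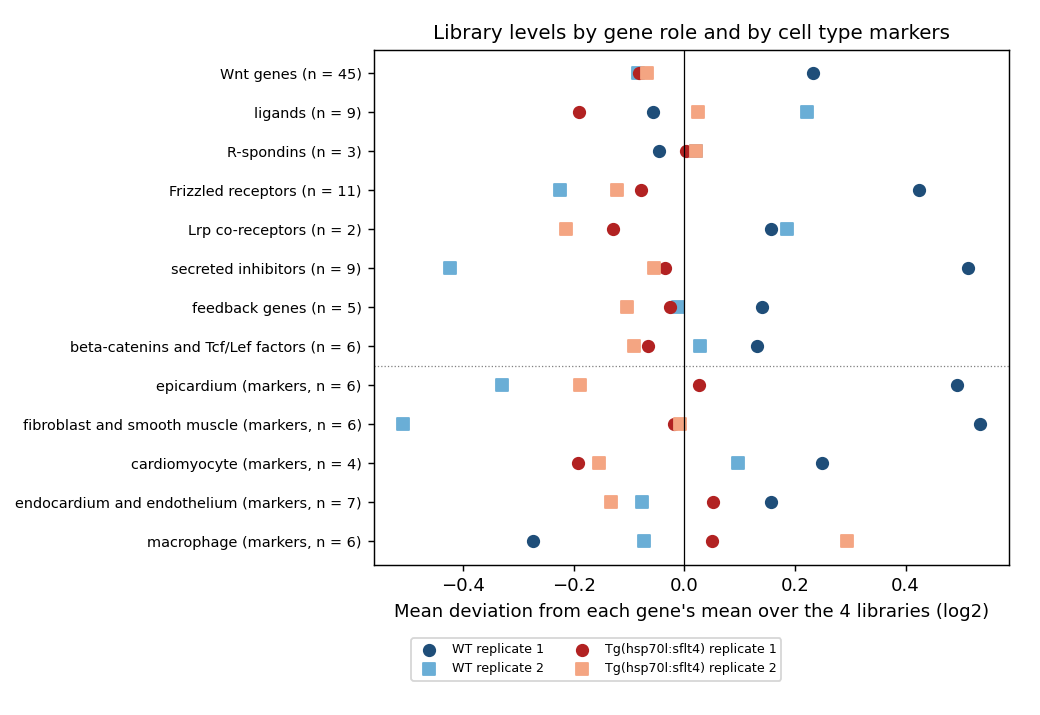
Mean deviation of each library from the genes' means over the 4 libraries (log2), for the Wnt genes above the dotted line and for some cell type markers below it. Wnt genes are shown together and by role. Erythrocyte and neutrophil markers are not drawn, and their values are given in the text. The number of genes is given with each set. WT replicate 1 and WT replicate 2 lie at opposite ends for the secreted inhibitors (0.51 and -0.42) and for the fibroblast and smooth muscle markers (0.53 and -0.51), with both Tg(hsp70l:sflt4) libraries between them.

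The genes grouped here as feedback genes have products that hold the signal back inside the cell or at its surface. Of these 5 had a row, and the group includes *axin1*, which is constitutive. *axin2* (chromosome 3, 55627948 to 55650771), a scaffold of the degradation complex that beta-catenin itself induces and that is widely used as a readout of the pathway, had the smallest p of all Wnt genes. It read 462 and 385 in the WT libraries against 301 and 284 in Tg(hsp70l:sflt4), or 423.5 ± 54.4 against 292.5 ± 12.0 (SD, n = 2 per group). Both transgenic libraries lay below both WT libraries, and the gap of 84 normalized reads was a little wider than the 77 between the WT libraries. The log2 difference was -0.53 (SE 0.18, limma unadjusted p = 0.0301, adjusted p = 0.408), a 1.45-fold lower mean. Over the 10 alternatives it ranged from -0.66 without WT replicate 2 to -0.40 without WT replicate 1. As the groups did not overlap, leaving out a library could not turn its direction. With equal totals it was -0.42. That scaling moved the median of all genes by 0.11, too little to turn a difference of this size.

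The constitutive *axin1* read 1010 and 845 in the WT libraries against 851 and 862 in Tg(hsp70l:sflt4), with overlap. The share of *axin2* in the summed reads of both Axin genes was therefore 31.4% and 31.3% in the WT libraries against 26.1% and 24.8% in Tg(hsp70l:sflt4). This share does not depend on how libraries are scaled. The gap between the groups was 5.17 percentage points, with distances of 0.0851 points within WT and 1.35 points within Tg(hsp70l:sflt4). With 2 libraries per group, a small distance can arise by accident and does not measure the spread. The counting error of the shares was not estimated. *znrf3*, the ubiquitin ligase that removes Frizzled receptors, read 188 and 153 against 154 and 127, with an overlap of 1 normalized read. *nkd1*, an inhibitor that binds Dishevelled, read 114 and 95 against 88 and 111. *apcdd1l*, which is related to the membrane inhibitor Apcdd1, read 265 and 329 against 427 and 327.

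Of the 6 beta-catenin and Tcf/Lef genes, 4 were lower and 0 higher in Tg(hsp70l:sflt4) without overlap, where all genes tested gave 21.4% and 21.8%. With equal totals the counts were 3 and 1, with *tcf7l1a* lost and *ctnnb2* gained. *ctnnb1* (chromosome 16, 6182501 to 6205790), which encodes beta-catenin, read 26654 and 26138 in the WT libraries against 23212 and 22816 in Tg(hsp70l:sflt4). The libraries of each group differed 1.02-fold, and the means of 26396 ± 365 and 23014 ± 280 (SD, n = 2 per group) differed 1.15-fold. The log2 difference was -0.20 (SE 0.15, limma unadjusted p = 0.249, adjusted p = 0.669), and with equal totals it was -0.09. Beta-catenin also joins cadherins to actin at cell contacts, so its transcript is not particular to Wnt signaling. Its paralogue *ctnnb2* read 5869 and 6064 against 5877 and 6434. The share of *ctnnb2* in the reads of both genes was 18.0% and 18.8% in the WT libraries against 20.2% and 22.0% in Tg(hsp70l:sflt4), without overlap.

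The transcription factor gene *tcf7l2* (chromosome 12, 30977736 to 31103906) read 585 and 705 in the WT libraries against 488 and 486 in Tg(hsp70l:sflt4) (log2 difference -0.40, SE 0.16, limma unadjusted p = 0.0533, adjusted p = 0.456). The transgenic libraries were 2 normalized reads apart and below both WT libraries. *tcf7l1b* read 469 and 410 against 360 and 290, and *tcf7l1a* 974 and 981 against 879 and 933. Both encode factors that mainly repress Wnt targets. *lef1*, an activating factor that is itself a Wnt target, read 174 and 105 against 152 and 149. Its transgenic libraries lay between the WT ones, unlike those of *axin2*.

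**Figure D4:**
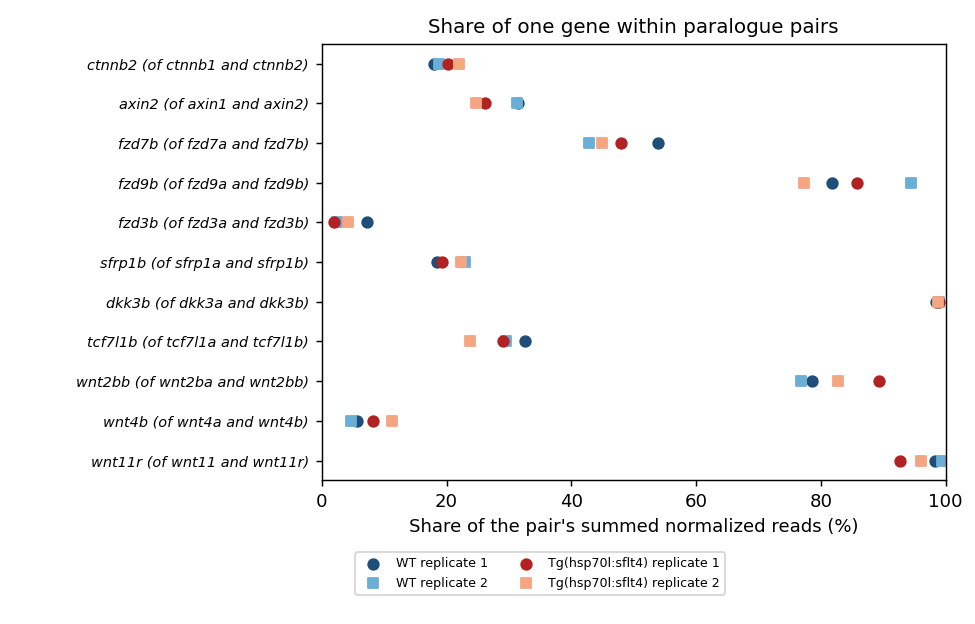
Share of one gene in the summed normalized reads of a paralogue pair (percent), in each library. A share is unaffected by the scaling of the library, and it compares libraries and not the levels of the paired genes, which differ in length. For *axin2* the WT libraries coincide at 31.4% and 31.3%, to the right of the Tg(hsp70l:sflt4) libraries at 26.1% and 24.8%, while for *fzd9b* the WT libraries lie on both sides of one of them.

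Shares within pairs of ligands were also apart. *wnt2bb* made up 78.5% and 76.8% of the Wnt2b reads in the WT libraries against 89.3% and 82.7% in Tg(hsp70l:sflt4), and *wnt4b* 5.60% and 4.73% of the Wnt4 reads against 8.20% and 11.3%. Neither pair overlapped between groups. In Tg(hsp70l:sflt4) the shares of *tcf7l1b* and *wnt11r* in their pairs were lower without overlap, with gaps of 0.42 and 2.26 percentage points. For single genes, the groups did not overlap in 43.2% of all genes tested. No such rate was computed for shares, and no test was made of them, so separate shares, those of *axin2* and *ctnnb2* included, are described only. In contrast, the share of *fzd7b* in its pair was 53.9% and 42.9% against 48.0% and 45.0%, and that of *fzd9b* 81.8% and 94.4% against 85.8% and 77.3%. The shares of *fzd3b*, *sfrp1b*, *dkk3b*, *lrp6* and *notum2* in their pairs overlapped as well. Whether reads were divided between paralogues in counting was not tested.

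Genes around this set were described from 5 pathway lists, and none of their members passed limma's test at an adjusted p under 0.05. *wls*, whose product carries Wnt ligands to the cell surface for secretion, read 4403 and 3182 in the WT libraries against 2776 and 2629 in Tg(hsp70l:sflt4), without overlap (log2 difference -0.47, limma unadjusted p = 0.0510, adjusted p = 0.456). Of 10 tested modulators, 4 were higher and 6 lower by mean. The one at an unadjusted p under 0.05 was *sost*, which encodes sclerostin, an inhibitor that binds Lrp5 and Lrp6. It read 124 and 87 against 302 and 211, without overlap (log2 difference 1.27, SE 0.30, limma unadjusted p = 0.00642, adjusted p = 0.313). *dact1*, for a Dishevelled-binding protein, read 284 and 215 against 175 and 163.

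In the signal transduction list 36 genes were tested, 16 higher and 20 lower by mean, with a median log2 difference of -0.09. *siah1*, a ubiquitin ligase gene, read 1113 and 1221 against 940 and 713, and *fbxw11b*, for the subunit of a ubiquitin ligase that recognises beta-catenin, 1484 and 1728 against 1963 and 2367. Of 29 genes for non-canonical receptors and planar polarity, 10 were higher and 19 lower, with a median of -0.03. None had an unadjusted limma p under 0.05 (0%, against 11% of all genes tested). Without overlap, 10 were lower (34.5%, against 21.4% of all genes tested) and 3 higher (10.3%, against 21.8%). *prickle1a* read 330 and 725 against 289 and 244, and *celsr1a* 406 and 484 against 304 and 376, both planar polarity genes. The 16 known Wnt target genes with a row divided into 7 higher and 9 lower, with a median of -0.10. *tbx6*, a mesoderm transcription factor gene, read 325 and 275 against 190 and 218 (limma unadjusted p = 0.0397, adjusted p = 0.432). The proto-oncogene *myca* read 201 and 161 against 236 and 341, the other way, so the targets lay on both sides.

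The table's own annotation places 133 genes in the KEGG Wnt signaling pathway, 32 of them among the 46 described. The other 101 had a median log2 difference of 0.03, with 54 higher and 47 lower by mean, and the groups did not overlap for 44 (43.6%, against 43.2% of all genes tested). At an unadjusted p under 0.05 there were 8 of them (7.92%, against 11% of all genes tested), 5 higher and 3 lower. The KEGG genes share members with the pathway lists, and *sost*, *siah1* and *fbxw11b*, given above, are among these 8. The smallest p was that of *gbp*, for a protein that binds the kinase Gsk3, at 348 and 362 in the WT libraries against 172 and 214 in Tg(hsp70l:sflt4) (log2 difference -0.88, SE 0.21, limma unadjusted p = 0.00571, adjusted p = 0.313). *rac2*, a GTPase of blood cells, read 3754 and 4355 against 5663 and 6265. Of 6 macrophage markers 5 were higher and 1 lower by mean in Tg(hsp70l:sflt4). The lower one was *csf1ra* at 2129 and 1179 against 1165 and 829, and *mpeg1.1* overlapped at 5184 and 4611 against 4320 and 5642. As a set they had mean deviations of -0.27 and -0.07 in the WT libraries against 0.05 and 0.29 in Tg(hsp70l:sflt4). The part of these markers' cells in the *rac2* values was not tested.

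Heart muscle markers summed to 1264530 and 1063444 normalized reads in the WT libraries against 820599 and 874337 in Tg(hsp70l:sflt4). Of these markers, 3 of 4 were lower without overlap (75%, against 21.4% of all genes tested). The other, *nppa*, overlapped at 117943 and 93919 against 127939 and 97173. By the sum, the groups had the same order as for *ctnnb1*, *tcf7l2*, *lrp5* and *axin2*, while 5 Wnt genes were higher in Tg(hsp70l:sflt4) without overlap. The part of muscle in the Wnt values was not tested. Markers of endocardium and endothelium summed to between 39592 and 47182, with 5 of 7 overlapping between groups. The defining marker *kdrl* read 11024 and 9678 against 8563 and 7287, and *cdh5* 10696 and 11008 against 11169 and 11147. None of the marker genes found was at 0 in a library, and *myl7*, a defining gene of heart muscle, gave at least 204313 normalized reads in each.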

How the data were processed

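Messenger RNA of 4 pools of zebrafish ventricles was sequenced with a stranded kit from 500 ng of total RNA, per the labels. The build was danRer11, and DESeq2 1.18.1, featureCounts 1.6.3 (Subread), Trimmomatic 0.38 and FastQC are listed, per the submitters' processing notes, which give no roles. No aligner is named among the sources used here. The deposited values are a score rather than raw counts: read counts divided by the authors' size factor and rounded to whole numbers, as the nearly equal medians of 335, 332, 335 and 328 show. Size factors were estimated from the rounding pattern (1.02 and 1.01 for WT, 1.10 and 0.885 for Tg(hsp70l:sflt4)), tested on simulated data, and used for read totals and counting intervals only.

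Values were tested by limma (version 3.58.1, R 4.3.3) fitted to log2(value + 1) with trend and robust moderation, for genes with a mean of at least 10, two-sided and without covariates. P-values were adjusted by Benjamini-Hochberg over all 17071 genes, with a threshold of 0.05. Fold changes on this scale understate those of low genes. The fit was tested on simulated data. The members and lists were chosen with earlier results of these data known, and the KEGG annotation was added after the table was seen. All 46 genes are described. Named genes were members at an unadjusted p under 0.05 and those without overlap and with a log2 difference of at least 1. They also were the 2 most read per role, the 2 with the widest range within a group, and a few central pathway genes. P-values are printed for some of these genes, and for some others chosen after their values were seen, among them the KEGG genes. From pathway lists the 2 genes with the smallest p are named. List symbols with no row or more than 1 row were left out. Since nothing says how fish were assigned to pools, a p-value here covers only the spread of these libraries, which may be technical. Intervals cover counting error only.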

Additional observations from a re-analysis of the deposited data

How the results depend on the processing

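With 10 alternatives run, limma called no Wnt gene under any. Over all genes it called 0, except without WT replicate 1 (217) and without WT replicate 2 (73), a range of 0 to 217 without single libraries. The 3 Wnt genes at an unadjusted p under 0.05 became 1 with equal totals (*wnt2bb*, higher), 6 with the replicate block (5 lower, 1 higher) and 0 to 11 without single libraries. They were 5 without WT replicate 1 (3 higher), 11 without WT replicate 2 (10 lower) and 0 without Tg(hsp70l:sflt4) replicate 2. The 19 Wnt genes without overlap became 25 to 40 without single libraries, where 1 library stands against 2. Such a count can only rise when a library is left out. The same shares over all genes were not counted, so this rise is not particular to Wnt genes. The median of -0.20 ranged from -0.33 to 0.0194 without single libraries and from -0.20 to -0.09 otherwise. The Wnt genes at an unadjusted p under 0.05 were also not the same genes throughout. Without WT replicate 1, *axin2*, *fzd9b* and *lrp5* were all absent from them. Without Tg(hsp70l:sflt4) replicate 1, *axin2* and *fzd9b* were absent. Without WT replicate 2, *axin2*, *fzd9b* and *lrp5* were all present.

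Of 198 values of single named genes, 189 kept their direction and their side of the threshold and 9 turned direction. The replicate block and the changed filters leave a log2 difference as it is by construction. Genes without overlap also keep their direction when a library is left out. Many of the 189 could thus not have turned direction. With equal totals *axin1* was at 0.0012. Without single libraries the log2 difference ranged from -0.24 to 0.0194 for *axin1*, -0.0216 to 0.11 for *ctnnb2*, -0.38 to 0.58 for *dkk3b*, -1.62 to 0.13 for *fzd3b*, -0.61 to 1.49 for *fzd9a*, -0.21 to 0.52 for *lef1*, -1.05 to 0.19 for *rspo3* and -0.40 to 0.95 for *sfrp5*. The cause was not tested. In fits with a lone library in a group, that library is assumed to vary like the other group.

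Nothing in the labels says that replicate numbers pair the libraries. Across genes, the difference of replicate 1 from replicate 2 in WT correlated with that in Tg(hsp70l:sflt4) at r = 0.14. This value cannot show whether the pools were paired by design. The block changed no adjusted call. At about 30 reads or fewer in a group, as for *wnt11*, *dkk3a*, *fzd3b*, *wnt16* and *wnt7ba*, counting error limits what a difference can show.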
